A study of Mus musculus with 12 samples.

Results

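The IL-1 family cytokines and receptors described here are 5 genes of the interleukin-1 (IL-1) family, measured by RNA sequencing in mouse fibroblasts: the cytokine gene Il33, the antagonist gene Il1rn, the receptor genes Il1r1 and Il1rl1, and Il1rap, the gene of the co-receptor that both receptors share. They were taken by gene symbol from the series count table, where they are 5 of 48709 genes, and all 5 passed the filter on low counts. The 12 libraries came from wild-type C57BL/6 mouse embryonic fibroblasts of E12.5 to E13.5 embryos, which are mixed connective-tissue cells grown in culture. Every culture received a small interfering RNA, either siIMP2 against the RNA-binding protein IMP2 (gene Igf2bp2) or a control siRNA (siControl), and 24 h later either 200 ng/mL of the cytokine IL-17 for 8 h or no stimulus. The 4 groups of 3 libraries each were siIMP2 with IL-17, siIMP2 unstimulated, siControl with IL-17 and siControl unstimulated. The comparisons ask what depletion of IMP2 and exposure to IL-17 did to these genes, separately and together.

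IL-1 alpha and IL-1 beta signal by binding IL-1R1, the Il1r1 product, which then recruits the accessory protein IL-1RAP to bring in MyD88 and the IRAK kinases. The Il1rn product, IL-1Ra, occupies IL-1R1 without recruiting the accessory protein and so blocks the ligands. IL-33, a nuclear cytokine that stromal and epithelial cells release on damage, uses the same accessory protein with its own receptor ST2, the Il1rl1 product. A secreted form of ST2 binds IL-33 without signalling, and gene counts cannot tell that form from the membrane form.

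In each group 2 libraries had titles beginning NA and 1 had a title beginning RB160; the labels do not say what the prefixes stand for, and no label says that replicates were separate cultures, so a p-value here sets a difference against variation that may be technical. Total counts per library ran between 33841054 and 44433699. Igf2bp2, the siRNA target, had 18.4 to 28.2 CPM (read counts scaled to library size) in the siIMP2 libraries, against 134 to 167 CPM in the siControl libraries. All 14 fibroblast markers examined passed the filter on low counts, and siIMP2 lowered 8 and raised 2 of them at either stimulus, where 33.4% of all tested genes were called with IL-17 and 32.9% without. Counts differed widely between libraries for Lum (0 to 356 a library), Thy1 (3 to 216), Dcn (19 to 3056) and Pdgfra (99 to 7155). They differed less for others, such as Vim (85024 to 142746), Fn1 (395080 to 606440) and Col1a1 (244709 to 522878). Adgre1, C1qb, C1qc and Tyrobp of the macrophage list and Tpsb2 and Fcer1a of the mast cell list had 0 counts in every library. Il7r, Il13 and Cd3e of the lymphoid list were also at 0. Of the macrophage list Csf1r (32 to 119 counts a library), Cd68 (83 to 158), Cd14 (142 to 450) and Mrc1 (0 to 41) were tested. Of the mast cell list only Kit was tested (0 to 179 counts a library), and of the lymphoid list Gata3 (103 to 271) and Rora (151 to 396). Of the endothelial list Cdh5 (2 to 21), Kdr (9 to 36), Esam (2 to 32) and Erg (0 to 345) were tested, and of the epithelial list Cdh1 (3 to 70), Krt8 (0 to 33) and Krt18 (3 to 81). The mast cell list summed to 0 to 2.98 CPM in siIMP2 libraries with IL-17 and 0.0583 to 2.22 CPM unstimulated, against 0.159 to 3.54 CPM in siControl libraries with IL-17 and 0.0896 to 3.38 CPM unstimulated. The lymphoid list summed to 10.8 to 14.7 CPM in siIMP2 libraries with IL-17 and 9.76 to 16.01 CPM unstimulated, against 9.97 to 11.3 CPM in siControl libraries with IL-17 and 10.6 to 12.9 CPM unstimulated. The summed macrophage list was at 9.54 to 12.2 CPM in siIMP2 libraries with IL-17 and 8.60 to 10.4 CPM unstimulated, against 13.5 to 16.1 CPM in siControl libraries with IL-17 and 8.97 to 15.1 CPM unstimulated. The endothelial list summed to 1.88 to 2.94 CPM in siIMP2 libraries with IL-17 and 2.07 to 4.54 CPM unstimulated, against 1.61 to 7.80 CPM in siControl libraries with IL-17 and 1.55 to 8.89 CPM unstimulated. The epithelial list lay at 0.788 to 3.45 CPM over all libraries. siIMP2 lowered 2 of the 4 tested macrophage genes with IL-17 and 1 without, and 1 of the 4 tested endothelial genes at either stimulus. Of the 3 tested epithelial genes it raised 2 and lowered 1 with IL-17, and raised 1 and lowered 1 without. The shares of all tested genes called were the 33.4% and 32.9% given above. The part of these lists in the results was not tested.

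The start regions of the members differed in composition. RefSeq windows of 300 bases on GRCm38.p6, holding 250 bases before and 50 after an annotated RNA start, were found for all 5 members, 10 windows in all, because 4 members have more than 1 annotated start. The window nearest the start of each member's longest coding transcript is shown here as sequence context. Il1rap RNA rose with siIMP2 while that of the other members fell. These are chr1:40224830-40225129 for Il1r1, chr1:40439379-40439678 for Il1rl1, chr16:26581455-26581754 for Il1rap, chr2:24336610-24336909 for Il1rn and chr19:29945540-29945839 for Il33, all on the plus strand. Capitals mark matches on either strand to the AP-1 motif TGANTCA, the C/EBP motif TTNNGNAA, the TATA box TATAAA or the degenerate NF-kappaB consensus.
Il1r1: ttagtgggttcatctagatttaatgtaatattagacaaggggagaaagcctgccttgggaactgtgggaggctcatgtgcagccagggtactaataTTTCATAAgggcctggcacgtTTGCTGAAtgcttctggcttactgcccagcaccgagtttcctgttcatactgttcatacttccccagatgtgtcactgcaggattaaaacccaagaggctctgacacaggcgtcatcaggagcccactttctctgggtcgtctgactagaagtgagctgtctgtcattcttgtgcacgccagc
Il1rl1: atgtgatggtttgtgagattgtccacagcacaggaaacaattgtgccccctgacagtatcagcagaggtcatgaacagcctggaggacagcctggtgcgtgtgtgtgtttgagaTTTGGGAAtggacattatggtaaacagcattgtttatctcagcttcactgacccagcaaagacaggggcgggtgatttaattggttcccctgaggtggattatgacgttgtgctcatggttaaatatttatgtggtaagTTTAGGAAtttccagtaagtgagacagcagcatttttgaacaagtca
Il1rap: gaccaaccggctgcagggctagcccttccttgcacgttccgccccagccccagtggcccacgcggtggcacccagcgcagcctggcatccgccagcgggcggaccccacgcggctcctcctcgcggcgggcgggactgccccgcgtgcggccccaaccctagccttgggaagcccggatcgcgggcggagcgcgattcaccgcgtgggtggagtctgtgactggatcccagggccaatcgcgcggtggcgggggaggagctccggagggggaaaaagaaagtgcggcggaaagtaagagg
Il1rn: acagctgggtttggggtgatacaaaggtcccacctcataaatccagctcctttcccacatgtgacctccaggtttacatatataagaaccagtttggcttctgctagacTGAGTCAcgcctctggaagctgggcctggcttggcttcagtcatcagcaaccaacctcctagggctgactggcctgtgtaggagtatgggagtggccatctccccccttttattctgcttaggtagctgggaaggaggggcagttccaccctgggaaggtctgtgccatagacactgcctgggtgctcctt
Il33: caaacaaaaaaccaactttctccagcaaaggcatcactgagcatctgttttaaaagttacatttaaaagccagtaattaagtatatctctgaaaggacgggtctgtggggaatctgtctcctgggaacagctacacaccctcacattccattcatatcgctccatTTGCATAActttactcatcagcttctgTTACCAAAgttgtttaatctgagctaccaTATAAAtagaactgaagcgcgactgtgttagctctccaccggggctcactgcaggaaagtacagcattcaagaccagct
The Il1rap window held 33 CpG dinucleotides and 72% G or C, against a median of 7 CpG and 52.7% over all 32841 windows of this length. The printed windows of the other members held between 1 and 5 CpG. A C/EBP match stood in 8 of the 10 windows, against 40.7% of all windows, and 2 of those 8 are overlapping Il1rn windows that share their matches. An AP-1 match stood in 1 of 10, the printed Il1rn window, against 7.81% of all windows. A TATA match stood in 3 of 10, against 13.6%. The NF-kappaB consensus matched 1 of 10, a second Il1r1 window, against 8.46%, and it overlapped a C/EBP match there. The printed Il1rap window holds no match. In the printed Il1rl1 and Il1r1 windows the capitals are all C/EBP matches, and the printed Il33 window has 2 of them and a TATA match. A match describes letters only, and a window without one says nothing of the factor.

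Levels between genes were compared per length, as RPKM, which divides CPM by the files' exonic length in kilobases. Il1rl1 and Il1rn had the highest mean levels in every group. In siIMP2 libraries with IL-17 the mean levels were 11.01 ± 9.54 RPKM for Il1rl1, 6.16 ± 6.29 for Il1rn, 2.73 ± 0.0860 for Il1rap, 2.65 ± 2.96 for Il1r1 and 0.440 ± 0.141 for Il33 (SD, n = 3). In unstimulated siIMP2 libraries they were 11.05 ± 9.12 RPKM for Il1rl1, 6.41 ± 7.50 for Il1rn, 2.92 ± 0.537 for Il1rap, 2.30 ± 2.44 for Il1r1 and 0.281 ± 0.0857 for Il33 (SD, n = 3). In siControl libraries with IL-17 they were 37.9 ± 4.34 RPKM for Il1rl1, 26.8 ± 17.2 for Il1rn, 7.81 ± 8.23 for Il1r1, 2.57 ± 0.207 for Il33 and 1.85 ± 0.156 for Il1rap (SD, n = 3). In unstimulated siControl libraries they were 32.7 ± 5.38 RPKM for Il1rl1, 25.7 ± 17.7 for Il1rn, 5.87 ± 5.53 for Il1r1, 1.63 ± 0.339 for Il1rap and 1.63 ± 0.651 for Il33 (SD, n = 3). The SDs of Il1r1 and Il1rn, and of Il1rl1 in the siIMP2 groups, were large, with the RB160 library of each group apart from its NA libraries. Neighbours in these orders differed by less than the larger of their SDs, except that Il1rn stood above Il1r1 in both siControl groups and Il33 above Il1rap in siControl with IL-17. The order of the top pair turned in the RB160 siControl libraries, where Il1rn had 46.7 RPKM with IL-17 and 46.0 without and Il1rl1 had 42.0 and 30.2. Per length of the longest GENCODE transcript, 4520 bases in place of 11360, Il1rap would stand at 6.87 and 7.34 RPKM in siIMP2 libraries with and without IL-17, against 4.65 and 4.09 RPKM in siControl libraries with and without IL-17. The other members would rise on that length too, so these values are not to be set against the orders above. Il1rl1 would stand at 49.3 and 42.5 RPKM in siControl libraries with and without IL-17. Il33 would stand at 2.91 RPKM in siControl with IL-17, below Il1rap there.

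siIMP2 changed all 5 members, both with IL-17 and without. Il1r1, Il1rl1, Il1rn and Il33 fell and Il1rap rose. The quasi-likelihood test of edgeR, Benjamini-Hochberg adjusted, called 33.4% of 13702 tested genes for siIMP2 with IL-17 (16.7% lower and 16.7% higher) and 32.9% without (16.7% lower and 16.1% higher), so a call by itself does not set the members apart. By size, 4.98% of tested genes were called with at least a 2-fold change with IL-17 and 4.76% without, and 4 of the 5 members were among them in both. The members were chosen with earlier results of these data known, so that share does not set them apart either. The plot of CPM by library shows the values.

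**Figure D1:**
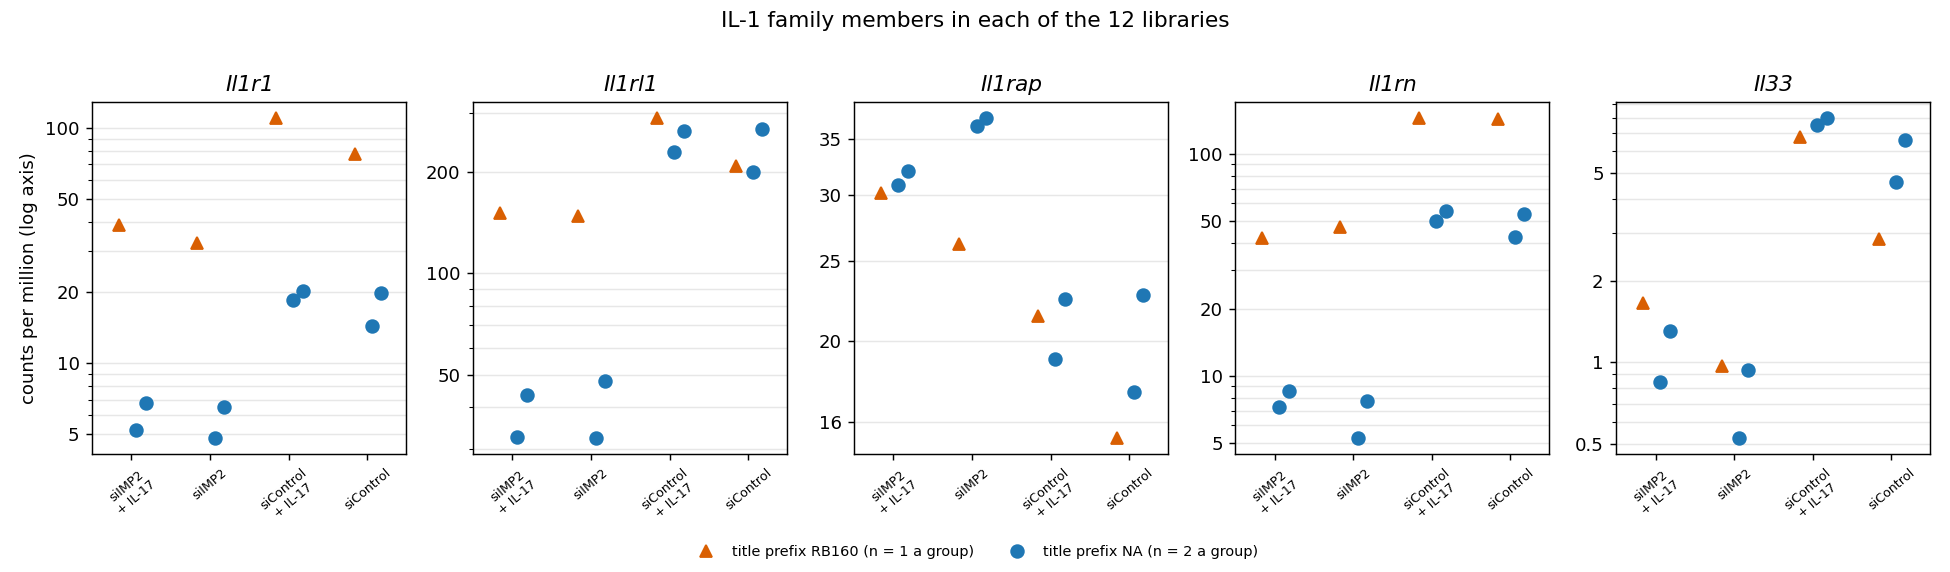
CPM on a log axis for each of the 5 genes in the 4 groups, with 1 point per library and the title prefix as the marker. Il1r1, Il1rl1, Il1rn and Il33 are lower with siIMP2 and Il1rap is higher, and the RB160 libraries lie far above the NA libraries of the same group for Il1r1 and Il1rn, and for Il1rl1 only with siIMP2.

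Il1r1, the signalling IL-1 receptor (chromosome 1, 40225080 to 40317257 of mm10, ENSMUSG00000026072), had 38.6 CPM in the RB160 library and 6.75 and 5.17 CPM in the NA libraries of the siIMP2 group with IL-17. The siControl group with IL-17 had 110.1 CPM in the RB160 library and 20.3 and 18.6 CPM in the NA libraries. Unstimulated, siIMP2 libraries had 32.5 CPM (RB160), 6.49 and 4.81 CPM, against 77.8 CPM (RB160), 19.8 and 14.4 CPM in siControl libraries. The groups overlapped, with the RB160 siIMP2 libraries above the NA siControl libraries, but within each prefix every siIMP2 library lay below every siControl library. The log2 fold change was -1.61 ± 0.14 with IL-17 (SE, edgeR adjusted p = 5.52e-06) and -1.47 ± 0.15 without (edgeR adjusted p = 1.19e-05), which left 32.7% and 36.1% of the siControl level.

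Il1rl1, which encodes ST2 (chromosome 1, 40429570 to 40465415, ENSMUSG00000026069), had 152 CPM in the RB160 library and 43.5 and 32.5 CPM in the NA libraries of siIMP2 with IL-17, against 289 CPM in RB160 and 265 and 229.8 CPM in NA libraries of siControl with IL-17. Unstimulated, it had 148 CPM (RB160), 47.9 and 32.4 CPM with siIMP2, against 208 CPM (RB160), 268 and 200.3 CPM with siControl. No siIMP2 library reached the lowest siControl library at either stimulus. The log2 fold change was -2.07 ± 0.40 with IL-17 (edgeR adjusted p = 0.00168) and -1.89 ± 0.40 without (edgeR adjusted p = 0.00315).

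Il1rap, the shared co-receptor (chromosome 16, 26581704 to 26730117, ENSMUSG00000022514), moved the other way. It had 30.9, 32.1 and 30.2 CPM in siIMP2 libraries with IL-17, against 22.5, 19.1 and 21.4 CPM in siControl libraries with IL-17, the last of each trio being RB160. Unstimulated, it had 37.1, 36.3 and 26.2 CPM with siIMP2, against 22.8, 17.4 and 15.3 CPM with siControl. The groups did not overlap at either stimulus, and the log2 fold change was 0.56 ± 0.12 with IL-17 (edgeR adjusted p = 0.00355) and 0.84 ± 0.12 without (edgeR adjusted p = 0.000237). Only 27.8% to 42.2% of its whole-gene reads were uniquely placed, so its level is uncertain, whereas at least 98.7% of the reads of every other member were. Counted from uniquely placed reads alone, it still passed, at 0.54 with IL-17 (edgeR adjusted p = 0.0231) and 0.79 without (edgeR adjusted p = 0.00295).

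Il1rn, the antagonist gene (chromosome 2, 24336853 to 24351494, ENSMUSG00000026981), had 41.9 CPM in the RB160 library and 8.54 and 7.24 CPM in the NA libraries of siIMP2 with IL-17, against 145 CPM in RB160 and 49.9 and 55.3 CPM in NA libraries of siControl with IL-17. Unstimulated, it had 47.0 CPM (RB160), 7.72 and 5.28 CPM with siIMP2, against 144 CPM (RB160), 53.8 and 42.6 CPM with siControl. The groups were apart with IL-17, and without it the RB160 siIMP2 library lay above the lower NA siControl library. The log2 fold change was -2.38 ± 0.25 with IL-17 (edgeR adjusted p = 1.95e-05) and -2.33 ± 0.25 without (edgeR adjusted p = 2.30e-05), which left 19.1% and 19.8% of the siControl level.

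Il33, the cytokine (chromosome 19, 29925114 to 29960718, ENSMUSG00000024810), was the member with the fewest counts, 18 to 75 in siIMP2 libraries and 120 to 345 in siControl libraries. It had 1.66, 1.31 and 0.846 CPM in siIMP2 libraries with IL-17, against 6.78, 7.96 and 7.50 CPM in siControl libraries with IL-17, the first of each trio being RB160. Unstimulated, it had 0.969, 0.935 and 0.525 CPM with siIMP2, against 2.85, 6.61 and 4.63 CPM with siControl. The highest siIMP2 library lay below the lowest siControl library at both stimuli. The log2 fold change was -2.50 ± 0.30 with IL-17 (edgeR adjusted p = 4.51e-05) and -2.49 ± 0.32 without (edgeR adjusted p = 9.45e-05), or 17.7% and 17.8% of the siControl level.

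**Figure D2:**
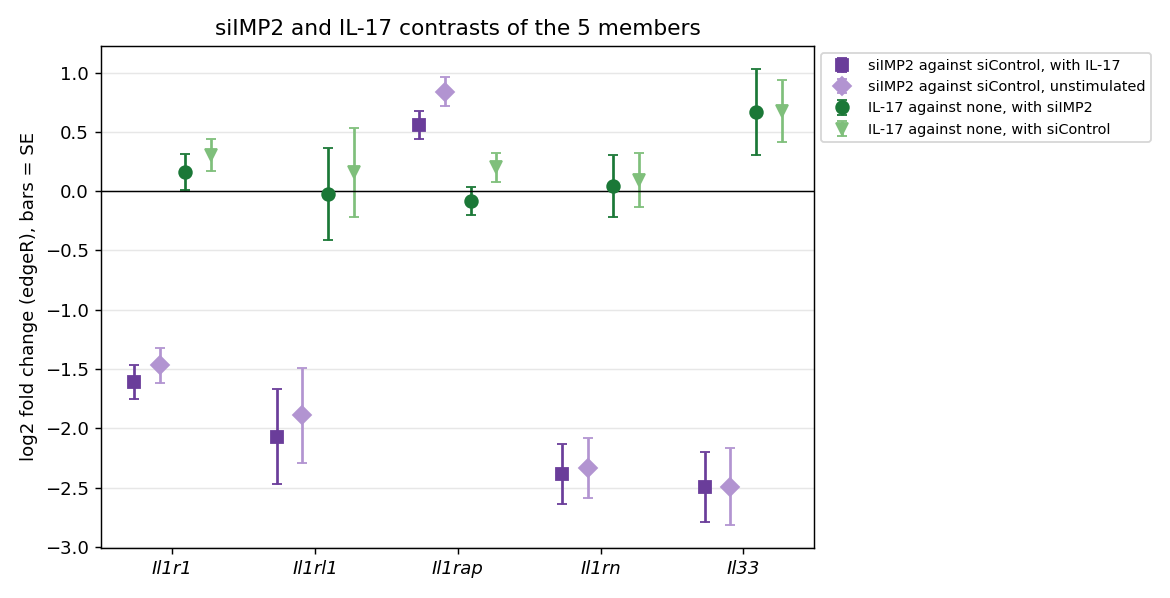
Log2 fold changes with standard errors (3 libraries a group) for siIMP2 against siControl and for IL-17 against no stimulus, each at both levels of the other factor. The siIMP2 points of Il1r1, Il1rl1, Il1rn and Il33 lie between -1.47 and -2.50 and those of Il1rap at 0.56 and 0.84, while the IL-17 points lie between -0.08 and 0.68.

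These calls rest on a term for the title prefix. Without it Il33 kept its call in both comparisons and Il1rap kept it without IL-17 only, while Il1r1, Il1rl1 and Il1rn missed the threshold in both, with adjusted p between 0.201 and 0.634 and log2 fold changes between -2.11 and -1.35. In the authors' deposited table, for which no model is stated, the comparison of Imp2 siRNA with Mock gave Il33 an adjusted p of 0.0004625, Il1rl1 0.0656, Il1rap 0.0792, Il1rn 0.167 and Il1r1 0.999967. With IL-17 on both sides, the authors' deposited table gave Il33 an adjusted p of 0.0002383, Il1rl1 0.0134, Il1rn 0.101, Il1rap 0.989 and Il1r1 0.999895. In bulk RNA, fewer cells of a type and less RNA per cell cannot be told apart.

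No member passed the test for IL-17. edgeR called 0 of 5 at either siRNA, with 0 at an unadjusted p below 0.05 with siIMP2 and 2 (Il33 and Il1r1) with siControl, and DESeq2 called 0. Over all tested genes edgeR called 0.511% for IL-17 with siIMP2 and 0.423% with siControl. Of 13702 genes, 1038 and 1503 in the same order had an unadjusted edgeR p below 0.05, and DESeq2 called 171 and 193. Il33 had the largest estimates, at 0.67 ± 0.36 with siIMP2 (95% interval -0.19 to 1.53, edgeR adjusted p = 0.776) and 0.68 ± 0.26 with siControl (95% interval 0.06 to 1.29, edgeR adjusted p = 0.347). The Il33 values of siControl libraries with IL-17 did not overlap those without, and with siIMP2 they did. Averaged over both siRNAs, a comparison in which 2.72% of genes were called, Il33 differed by 0.67 ± 0.22 (edgeR adjusted p = 0.145) and Il1r1 by 0.23 ± 0.10 (edgeR adjusted p = 0.282). Both averages passed the threshold when the first siControl NA library was left out, at 0.83 (adjusted p = 0.0465) for Il33 and 0.32 (adjusted p = 0.0470) for Il1r1. For Il1rn the 95% interval of the averaged IL-17 difference ran from -0.34 to 0.48, for Il1rl1 from -0.57 to 0.71 and for Il1rap from -0.14 to 0.26.

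The IL-17 response with siIMP2 did not differ detectably from that with siControl for any member. Across all genes the test of that difference called 0 of 13702 (0%) by edgeR and 0 by DESeq2, with 152 genes at an unadjusted edgeR p below 0.05. The member estimates lay between -0.28 for Il1rap and -0.01 for Il33. The 95% interval for Il33 ran from -1.39 to 1.38 and for Il1r1 from -0.62 to 0.34. The data do not exclude differences within these intervals.

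The 2 title prefixes differed in 4 of the 5 members, in a comparison that called 69.5% of tested genes. RB160 libraries exceeded NA libraries by a log2 difference of 2.47 ± 0.10 for Il1r1 (edgeR adjusted p = 4.75e-10), 2.03 ± 0.17 for Il1rn (edgeR adjusted p = 3.26e-07) and 1.06 ± 0.29 for Il1rl1 (edgeR adjusted p = 0.00546). In every group the RB160 library lay above both NA libraries for Il1r1 and Il1rn. For Il1rl1 it did so in both siIMP2 groups and in siControl with IL-17, while the unstimulated RB160 siControl library, at 208 CPM, lay between the NA libraries, at 268 and 200.3 CPM. The Il1rl1 value is 1 estimate over all 4 groups, which were unlike. With siIMP2 the RB160 libraries had 152 CPM with IL-17 and 148 CPM without, against NA means of 38.0 and 40.1 CPM. With siControl they had 289 CPM with IL-17 and 208 CPM without, against NA means of 247 and 234 CPM. The Il1rl1 estimate was 0.69 without the RB160 siIMP2 library with IL-17. Il1rap differed by -0.22 ± 0.09 (edgeR adjusted p = 0.0486). That call was lost in 8 of the 12 analyses that left out 1 library, at -0.23 to -0.12, and the difference was 0.16 with uniquely placed reads. Il33 differed by -0.15 ± 0.23 (edgeR adjusted p = 0.560).

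The siIMP2 effect itself differed between prefixes for 2 members. For Il1rl1 the difference between siIMP2 and siControl in log2 CPM was -0.93 in RB160 libraries and -2.71 in NA libraries with IL-17, and -0.49 in RB160 and -2.56 in NA libraries without. For Il1rn it was -1.80 in RB160 and -2.73 in NA libraries with IL-17, and -1.61 in RB160 and -2.90 in NA libraries without. The test of the difference, RB160 minus NA, gave 1.91 ± 0.21 for Il1rl1 (edgeR adjusted p = 0.000293) and 1.11 ± 0.17 for Il1rn (edgeR adjusted p = 0.00236), where 6.58% of genes were called. The Il1rn call was lost without the unstimulated RB160 library of either siRNA (0.94 without siControl, 0.92 without siIMP2), and over the same leave-outs the count of all genes called fell as low as 112 against 902 with all libraries. Il33 had a difference of 1.05 ± 0.32 (edgeR adjusted p = 0.0691), Il1r1 0.27 ± 0.18 (edgeR adjusted p = 0.421) and Il1rap -0.10 ± 0.13 (edgeR adjusted p = 0.722). The fall of Igf2bp2 itself was also smaller in RB160 libraries, by 0.55 ± 0.14 (edgeR adjusted p = 0.0312, lost in 7 of the 12 leave-outs, at 0.45 to 0.61), and its part in the member differences was not tested. The IL-17 effect differed between prefixes for 0 members in edgeR and 0 in DESeq2, with 1 (Il1rap) at an unadjusted p below 0.05. In that comparison edgeR called 0.307% of genes, and 1310 of 13702 had an unadjusted edgeR p below 0.05.

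**Figure D3:**
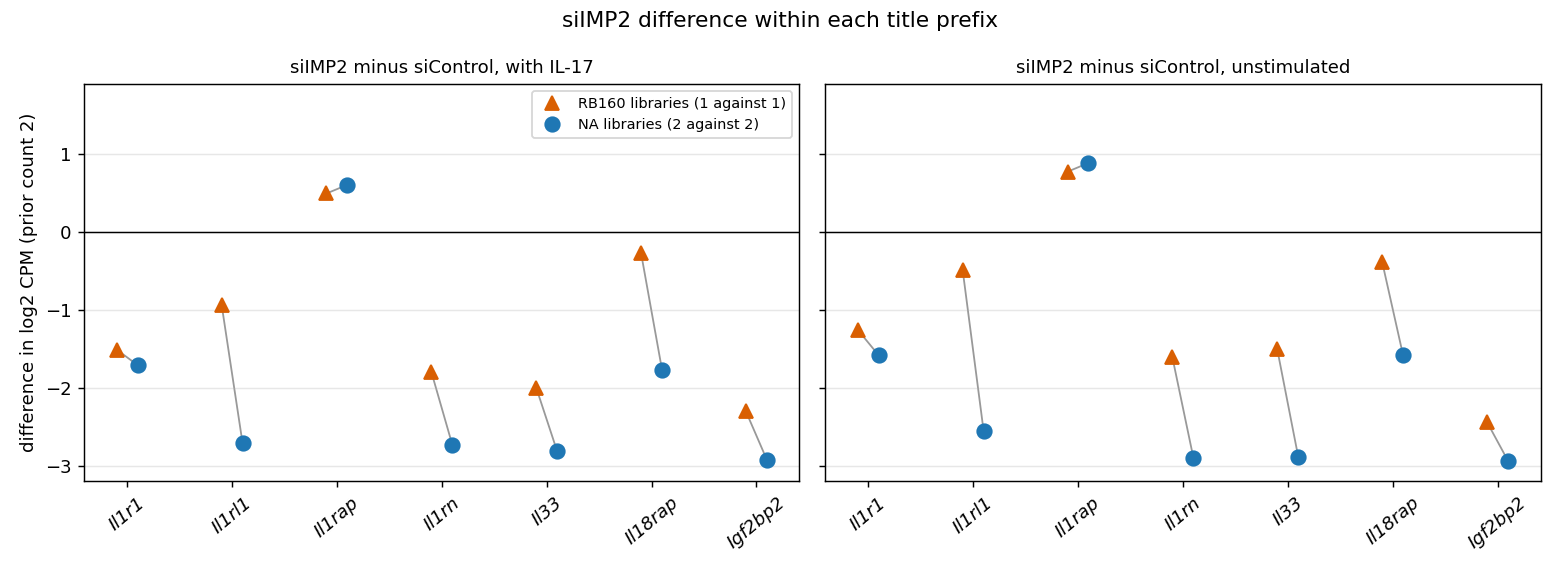
Difference in log2 CPM between siIMP2 and siControl within the RB160 libraries (1 against 1) and within the NA libraries (means of 2 against 2), with IL-17 and unstimulated, for the 5 members, Il18rap and Igf2bp2. For Il1rl1 the RB160 points stand at -0.93 and -0.49 and the NA points at -2.71 and -2.56, while for Il1r1 and Il1rap the prefixes lie close together.

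Reads in the gene body but outside exons gave a second view of the siIMP2 comparison. These were computed per library as whole-gene minus exonic reads and fitted separately over 12463 genes, an analysis chosen after the data were seen. Il1rn had 181 such reads in all siIMP2 libraries with IL-17, against 790 in siControl with IL-17, and 141 against 494 unstimulated. Il1r1 had 240 with siIMP2 and IL-17, against 960 with siControl and IL-17, and 158 against 400 unstimulated. Il1rl1 had 502 with siIMP2 and IL-17, against 1318 with siControl and IL-17, and 414 against 878 unstimulated. In NA libraries Il1rn had 7 to 15 such reads a library with siIMP2 and 83 to 108 with siControl. Il1r1 had 9 to 19 and 53 to 81 there, and Il1rl1 46 to 70 and 220 to 345. The RB160 siIMP2 libraries with IL-17 and without had 159 and 122 for Il1rn, 218 and 130 for Il1r1 and 386 and 302 for Il1rl1. With IL-17, where 10.7% of genes were called, the log2 fold changes were -2.15 ± 0.25 for Il1rn, -1.96 ± 0.21 for Il1r1 and -1.53 ± 0.29 for Il1rl1, all called (edgeR adjusted p = 1.25e-06, 4.53e-07 and 0.000602). Unstimulated, where 10.8% were called, they were -2.19 ± 0.26, -1.68 ± 0.23 and -1.47 ± 0.30 in the same order of genes, all called (edgeR adjusted p = 2.15e-06, 1.97e-05 and 0.00140). Il1rap did not pass, at 0.51 ± 0.23 with IL-17 (edgeR adjusted p = 0.182) and 0.27 ± 0.25 without (edgeR adjusted p = 0.573), and Il33 had too few such reads, 5 to 37 a group, to be tested. The siIMP2 effect from these reads differed between prefixes, RB160 minus NA, by 1.88 for Il1rl1, 1.60 for Il1rn and 1.04 for Il1r1, all called, where 1.78% of genes were called. For Il1rn and Il1r1 these differences rest on the few NA siIMP2 reads given above. No source used here gives strand use in the authors' counting, so such reads may include transcripts of the other strand.

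**Figure D4:**
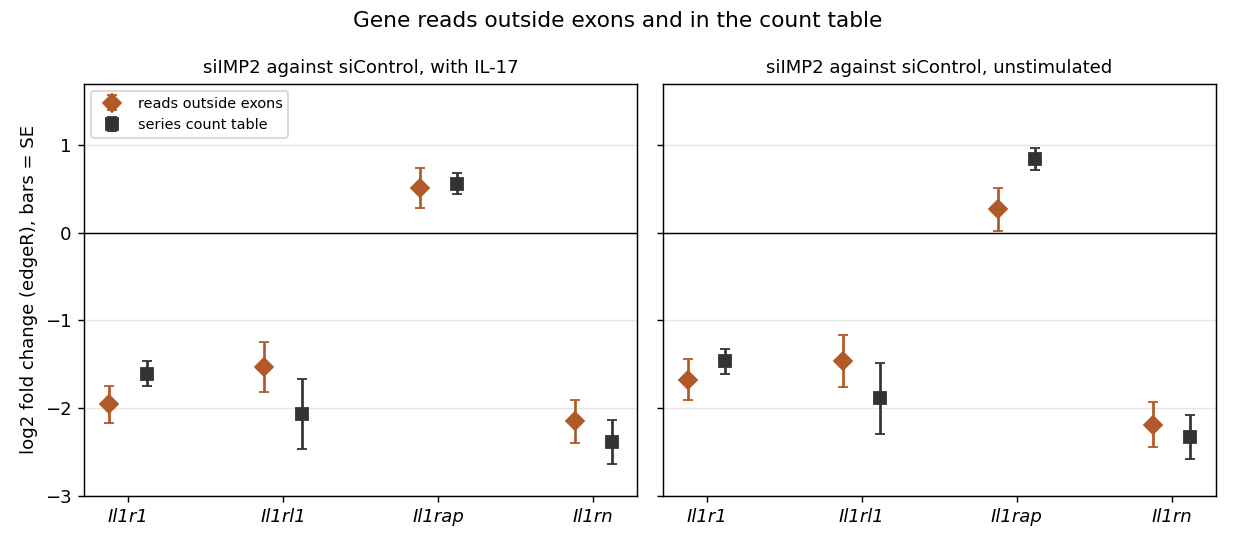
Log2 fold changes with standard errors for siIMP2 against siControl from reads outside exons and from the series count table, 3 libraries a group. For Il1r1, Il1rl1 and Il1rn both kinds of reads lie between -1.47 and -2.38, and for Il1rap all 4 points lie above 0.

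Other genes of the family were mostly near 0. Of 9 further ligand and inhibitor genes listed, 8 were in the table and 3 were tested. Il1b, the inducible IL-1 ligand, had 0 counts in every library, which allows up to 3 counts, or 0.0590 to 0.0940 CPM, for counting error alone. Il1f6, Il1f8, Il1f9 and Il1f10 had between 0 and 12 counts over all 12 libraries together. Il1a, the other IL-1R1 ligand, had 138, 138 and 55 counts in siIMP2 libraries with IL-17 and 64, 44 and 1 in unstimulated siIMP2 libraries, against 45, 37 and 12 in siControl libraries with IL-17 and 26, 10 and 2 in unstimulated siControl libraries, the last of each trio being RB160. Il1a rose with siIMP2 by 2.06 ± 0.40 in log2 with IL-17 (edgeR adjusted p = 0.00172) and 1.47 ± 0.50 without (edgeR adjusted p = 0.0383). The unstimulated call was lost, at 1.01 to 1.51, without the first NA library of siIMP2, siIMP2 with IL-17 or siControl with IL-17, the second NA library of siIMP2 or siControl, or the RB160 siControl library. The unstimulated RB160 pair held 1 count with siIMP2 and 2 with siControl. Only 36.2% of Il1a reads were uniquely placed. Averaged over both siRNAs, Il1a rose with IL-17 by 1.58 ± 0.32 (edgeR adjusted p = 0.0199), a call lost with uniquely placed reads (1.32, adjusted p = 0.0557). It was also lost without the first NA library of siControl with IL-17 or the second NA library of siIMP2 or siControl, at 1.41 to 1.57.

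Il18, a cytokine of the same family, fell with siIMP2 by 1.20 ± 0.33 with IL-17 (edgeR adjusted p = 0.0133) and by 1.02 ± 0.32 without (edgeR adjusted p = 0.0262). NA libraries held only 4 to 22 Il18 counts each. The call with IL-17 was lost without the RB160 siIMP2 library with IL-17 (-1.19, adjusted p = 0.0867). The unstimulated call was lost, at -1.06 to -0.87, without the first NA library of either siRNA, the second NA siIMP2 library or the RB160 siControl library, and the estimate was -1.74 without the RB160 siIMP2 library. Il18bp, the secreted IL-18 inhibitor, was not called, at -0.28 ± 0.15 (edgeR adjusted p = 0.180) with IL-17 and -0.05 ± 0.16 (edgeR adjusted p = 0.850) without.

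**Figure D5:**
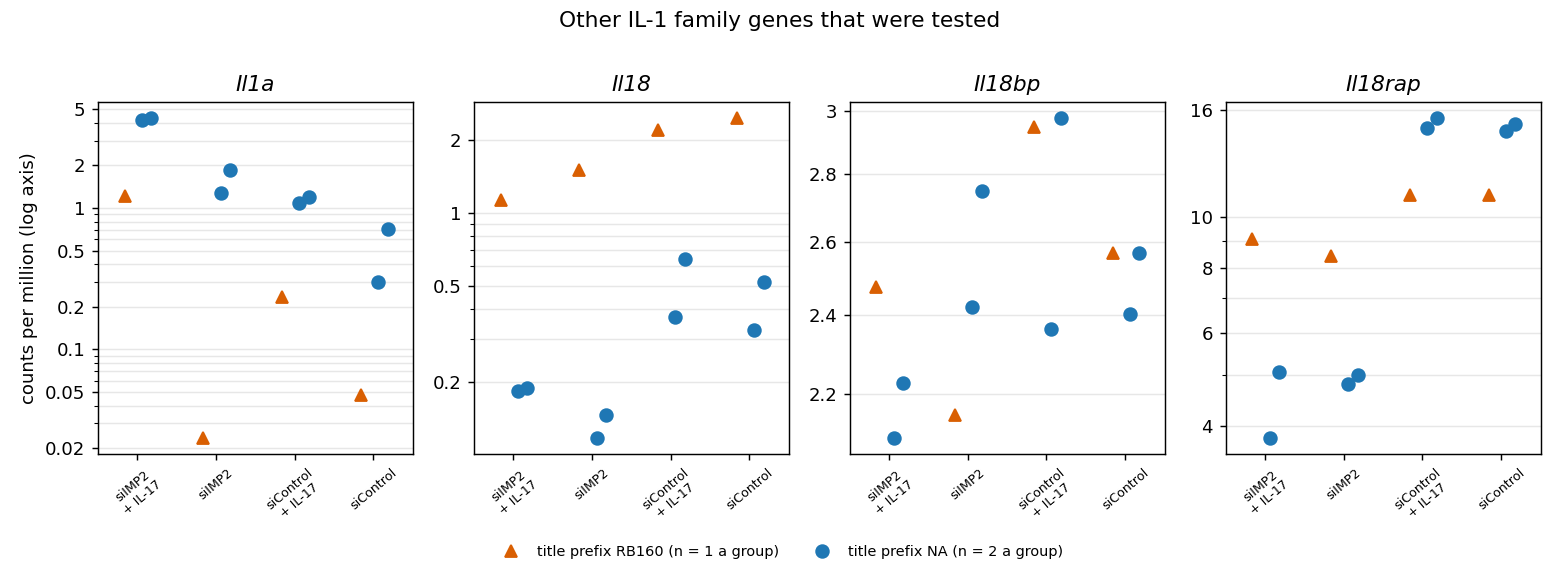
CPM on a log axis for the 4 further family genes with enough reads to be tested, by group and title prefix. Within each prefix Il1a is highest in siIMP2 libraries with IL-17, and Il18 and Il18rap are lower with siIMP2 at either stimulus, while Il18bp is lower with siIMP2 within each prefix with IL-17 and overlaps in the NA libraries without it.

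Of 7 further receptor genes only Il18rap, the IL-18 co-receptor, was tested, and Il1r2, Il1rl2, Il18r1, Sigirr, Il1rapl1 and Il1rapl2 had 0 to 54 counts over all libraries. Il18rap shares a stretch of 478 kb of chromosome 1 with Il1r2, Il1r1, Il1rl2, Il1rl1 and Il18r1. It had 9.10, 5.07 and 3.79 CPM in siIMP2 libraries with IL-17, against 11.03, 14.8 and 15.4 CPM in siControl libraries with IL-17, the first of each trio being RB160. Unstimulated it had 8.44, 5.00 and 4.81 CPM with siIMP2, against 11.03, 15.04 and 14.6 CPM with siControl, in the same order. It fell with siIMP2 by 1.21 ± 0.28 with IL-17 (edgeR adjusted p = 0.00476) and by 1.17 ± 0.28 without (edgeR adjusted p = 0.00580), and without the prefix term both calls were lost (adjusted p = 0.102 and 0.110). As for Il1rl1, the fall was smaller in RB160 libraries, by 1.35 ± 0.15 (edgeR adjusted p = 0.000270). For Il1r1 in the same stretch that difference was 0.27 ± 0.18 (edgeR adjusted p = 0.421). All 3 genes of this stretch with enough reads, Il1r1, Il1rl1 and Il18rap, were called lower with siIMP2 at either stimulus. Over all tested genes 16.7% were called lower with IL-17 and 16.7% without. Il1r1 and Il1rl1 are members, and the members were chosen with earlier results of these data known. Il1r2, Il1rl2 and Il18r1 held 10, 31 and 14 counts in total.

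The receptor-proximal signalling list had 22 genes, all tested. With IL-17 siIMP2 raised 8 and lowered 3, and unstimulated it raised 9 and lowered 3, where 33.4% and 32.9% of all tested genes were called. The list's median log2 fold change was 0.14 with IL-17 and 0.07 without, against -0.01 and 0.00 over all tested genes. The 3 lowered genes were the same at both stimuli, and they are named here after their values were seen. Irak3, an inhibitory member of the IRAK family, fell by 0.69 ± 0.15 with IL-17 (edgeR adjusted p = 0.00361) and by 0.73 ± 0.15 without (edgeR adjusted p = 0.00238). Myd88 fell by 0.38 ± 0.11 with IL-17 (edgeR adjusted p = 0.0139) and by 0.39 ± 0.11 without (edgeR adjusted p = 0.0126). Tollip fell by 0.27 ± 0.06 with IL-17 (edgeR adjusted p = 0.00353) and by 0.26 ± 0.06 without (edgeR adjusted p = 0.00522). The 3 with the smallest p were also the same at both stimuli. Ecsit, a Traf6 partner, rose by 0.56 ± 0.07 with IL-17 (edgeR adjusted p = 7.78e-05) and 0.54 ± 0.07 without (edgeR adjusted p = 0.000102). Irak2, an IL-1 receptor-associated kinase, rose by 0.49 ± 0.06 (edgeR adjusted p = 0.000116) and 0.46 ± 0.06 (edgeR adjusted p = 0.000189), and Tab2, an adaptor of the kinase TAK1, by 0.39 ± 0.06 (edgeR adjusted p = 0.000552) and 0.40 ± 0.06 (edgeR adjusted p = 0.000478). Peli2, a ubiquitin ligase acting on IRAK proteins, had a siIMP2 effect that differed between prefixes by -1.31 ± 0.26 (edgeR adjusted p = 0.0114), a call lost without any of the 4 RB160 libraries. Averaged over both siRNAs, IL-17 gave 0 edgeR calls among the 22, with 7 at an unadjusted p below 0.05, and 1 DESeq2 call, Ikbkg (0.15, adjusted p = 0.0487), the NF-kappaB pathway regulator NEMO. Over all 13702 tested genes, 2193 had an unadjusted edgeR p below 0.05 in that comparison and DESeq2 called 654.

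Of 20 genes listed for processing and release of the cytokines, 10 were tested, and the inflammasome genes Casp1, Nlrp3, Nlrp1a, Nlrp1b, Nlrc4, Aim2 and Pycard had 0 to 42 counts in total. With IL-17 siIMP2 raised 2 and lowered 5, and unstimulated it raised 1 and lowered 7, against the same shares of 33.4% and 32.9% called over all tested genes. The list's median log2 fold change was -0.26 with IL-17 and -0.28 without. Casp4, the mouse caspase-11 that responds to intracellular lipopolysaccharide, fell by 1.21 ± 0.17 with IL-17 (edgeR adjusted p = 0.000161). Unstimulated, its log2 fold change was -1.18 ± 0.18 (edgeR adjusted p = 0.000357). Capn2, a calpain subunit, rose by 0.36 ± 0.05 with IL-17 (edgeR adjusted p = 0.000136) and 0.34 ± 0.05 without (edgeR adjusted p = 0.000215). Casp4 was also higher with IL-17 averaged over both siRNAs, by 0.63 ± 0.12 (edgeR adjusted p = 0.0161), a call that was lost in the NA libraries alone (0.48, adjusted p = 0.210), without the unstimulated RB160 siIMP2 library (0.58, adjusted p = 0.0743) and without the prefix term (0.67, adjusted p = 0.999998). Without that term the siIMP2 calls given above for Il1a, Il18, Capn2, Ecsit, Irak2 and Tab2, and that of Casp4 with IL-17, were lost too. Their edgeR adjusted p lay between 0.151 and 0.793. The IL-17 call of Il1a was lost as well (edgeR adjusted p = 0.999998). The siIMP2 calls of Irak3, Myd88 and Tollip, and the unstimulated one of Casp4, were not recomputed without the term or with libraries left out.

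After the mean of each title prefix was taken out, the levels of the 5 members across the 12 libraries followed the siRNA. Pearson's r over these 12 libraries was 0.973 between Il1rn and Il1r1, 0.984 between Il33 and Il1r1, 0.967 between Il1rl1 and Il1rn and between -0.797 and -0.900 for Il1rap against the other 4 members. These are descriptions of points that share library and siRNA group. Among 10602 genes of sufficient level, those most like Il1rn were Cct6a (r = 0.996), Klhl42 (0.996) and Gdf11 (0.993). Those most like Il1r1 were Thrap3 (0.993), Fmnl2 (0.991) and Slc41a2 (0.991), and those most like Il1rl1 were Gap43 (0.993), Lhfp (0.992) and Igf2bp3 (0.992). Those most like Il33 were Sod3 (0.996), Spp1 (0.995) and Cp (0.993), and those most like Il1rap were Slc7a1 (0.980), Atp2a2 (0.979) and Uhrf1bp1l (0.979). Pearson's r takes no account of size. For siIMP2 with IL-17, genes most like the 4 lowered members had log2 fold changes from -1.95 (Cp) to -0.18 (Thrap3). Those members had -2.50 to -1.61. Genes most like Il1rap had 0.24 to 0.50, against 0.56 for Il1rap.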

How the data were processed

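RNA was sequenced from 12 libraries of mouse embryonic fibroblasts. The authors deposited a series table of whole-number read counts per gene, per-library tables with exonic, whole-gene and uniquely placed counts and exonic length, and a table of their own log2 fold changes with FDR-adjusted p-values. Coordinates are on mm10, per the submitters' processing notes, and aligner, counter and strand use are not given in the sources used. The counts were tested with edgeR 4.0.16 in R 4.3.3 (filterByExpr with a minimum count of 10, TMM factors, quasi-likelihood test, Benjamini-Hochberg over all 13702 tested genes, threshold 0.05), with terms for 4 groups and the title prefix. The interactions of the prefix with siRNA and stimulus were fitted as a second model. CPM used TMM-scaled library sizes. Within-prefix differences used log2 CPM with a prior count of 2. DESeq2 1.42.0, RLE factors, no filter, no prefix term, NA libraries alone, uniquely placed reads and each library left out were alternatives. The scripts were tested on simulated data. Of each gene list, up to 3 called genes with the smallest p were named, except 2 that are not reported here. Il36a, Il36b, Il36g and Gsdme were found under older symbols (Il1f6, Il1f8, Il1f9, Dfna5) and Il36rn was not matched. Promoter sequences are RefSeq's (GRCm38.p6). The members and lists were chosen with earlier results of these data known.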

Additional observations from a re-analysis of the deposited data

Results flagged for a closer look

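The siIMP2 effect on 5 genes named in the text differed between the title prefixes, by a test of the difference itself that called 6.58% of all tested genes. Leaving out 1 library ended the call in 7 of 12 cases for Igf2bp2, 4 for Peli2 and 2 for Il1rn. The fall of Il1rl1 was smaller in RB160 than in NA libraries by 1.91 in log2 (edgeR adjusted p = 0.000293), and that of Il1rn by 1.11 (edgeR adjusted p = 0.00236). Outside the members, the fall of Il18rap was smaller by 1.35 (edgeR adjusted p = 0.000270), the siIMP2 effect on Peli2 differed by -1.31 (edgeR adjusted p = 0.0114), and the fall of the siRNA target Igf2bp2 was smaller by 0.55 (edgeR adjusted p = 0.0312). From reads outside exons, the same test gave 1.88 for Il1rl1, 1.60 for Il1rn and 1.04 for Il1r1, all called, in a comparison with 1.78% of 12463 genes called. NA siIMP2 libraries held only 7 to 15 such reads each for Il1rn and 9 to 19 for Il1r1. Each group holds 1 RB160 library, and which feature of those libraries goes with the difference was not tested.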

How the results depend on the processing

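Of 180 recomputed siIMP2 fold changes of the 5 members at either stimulus, 0 changed sign and 173 kept their side of the threshold. The other 7 lost their call, all without the prefix term, with IL-17 (Il1rn -2.11, Il1rl1 -1.78, Il1r1 -1.56, Il1rap 0.56) and without (Il1rn -2.00, Il1rl1 -1.56, Il1r1 -1.35). The stimulus averages of Il1rn (-2.06) and Il1r1 (-1.45) were lost as well, Il1rn with siIMP2 turned to -0.055 for IL-17, and called genes numbered 1 for IL-17 with siControl, 2 with siIMP2 and 4 averaged, and 321, 327 and 1666 for siIMP2 unstimulated, with IL-17 and averaged, against 58, 70, 373, 4505, 4581 and 6777 with the term. DESeq2 called 193, 171 and 654 genes for IL-17 with siControl, with siIMP2 and averaged, and 95 for the prefix difference of the IL-17 effect, against 42. Without a filter these were 221, 179, 674 and 322, the prefix difference of the siIMP2 effect called 1522 against 902, and Il33 passed for averaged IL-17 (0.68) and for the prefix difference of siIMP2 (1.05), as did Il1rap for that of IL-17 (0.43). NA libraries alone called 46 genes for IL-17 with siIMP2 and 199 averaged, and turned Il1rap for averaged IL-17 (-0.084) and the response differences of Il1rn (0.16) and Il33 (0.11). Uniquely placed reads called 68 for the prefix difference of IL-17 and turned Il1rap between prefixes (0.16) and the response difference of Il33 (0.00825). The cause of these changes was not tested.

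Leaving out each library in turn, the counts ran 9 to 98 for IL-17 with siControl, 13 to 117 with siIMP2 and 198 to 490 averaged, and 112 to 1110 and 2 to 64 for the prefix differences of siIMP2 and IL-17. The log2 estimates of members whose call or sign moved ran as follows. For IL-17 with siControl, Il1rn lay between -0.10 and 0.33 and Il1rl1 between -0.23 and 0.51. For IL-17 with siIMP2, Il1rn lay between -0.20 and 0.58 and Il1rl1 between -0.61 and 0.49. For averaged IL-17, Il1rn lay between -0.054 and 0.33, Il1r1 between 0.16 and 0.32, Il1rap between -0.00144 and 0.13, Il1rl1 between -0.22 and 0.33 and Il33 between 0.48 and 0.83. For the response difference, Il1rn lay between -0.29 and 0.48, Il1rl1 between -0.78 and 0.32 and Il33 between -0.43 and 0.32. Between prefixes, Il1rap lay between -0.31 and -0.12 and Il33 between -0.37 and 0.16. For the prefix difference of siIMP2, Il1rn lay between 0.92 and 1.28 and Il33 between 0.79 and 1.39. No paired analysis was possible because the labels give no replicate numbers that tie libraries across groups. The counts of Il33 and Il1a limit what could be detected for them.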
